A study of Homo sapiens with 12 samples.

Results

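The comparison set 3 cultures of human cardiomyocytes given 10 nM endothelin-1 for 48 h against 3 cultures given 16 µM sacubitrilat for 48 h. These 6 libraries were taken from the 12 of the study by their titles, and no measured value chose them; the other 6 came from cultures given vehicle or both compounds. All cells were differentiated from WTC-mEGFP-ACTN2-cl85, an established induced pluripotent stem cell line that is 1 edited clone and carries a green fluorescent protein tag at the end of ACTN2 on 1 of its copies, and were enriched for cardiomyocytes in lactate medium without glucose. The primary comparisons named by the study did not include this one, which sets its single-compound arms against each other. Per the series' design text, every library came from a separate culture. The labels conflicted: titles, library names and treatment fields gave the groups used here, while a second line in the description of each of these 6 libraries named the other compound. If that second line were the true one, every size would stand and every direction would be the opposite. No untreated cells entered the comparison, so a gene called higher may have gone up with endothelin-1 or down with sacubitrilat, which cannot be told apart here.

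Endothelin-1 is a vasoconstrictor peptide whose receptors on heart muscle cells couple to Gq, phospholipase C and calcium release, and it is a standard trigger of hypertrophic growth in culture, with a return of fetal genes such as those of the natriuretic peptides. Sacubitrilat is the active form of sacubitril and inhibits neprilysin, a membrane peptidase that cleaves natriuretic peptides and also endothelin-1 itself. Natriuretic peptides act on guanylate cyclase receptors and oppose growth and matrix deposition through cyclic GMP.

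The 3 endothelin-1 libraries held 1781653, 1473744 and 1719492 counts and the 3 sacubitrilat libraries 1361536, 1268308 and 1953122. A count of 0 allowed a level of up to 1.54 to 2.37 CPM, the counts of a gene scaled to a fixed library total, in these libraries (3 counts, counting error only). The libraries of a group were close to each other. Over genes, the chi-square per degree of freedom between 2 libraries was 1.13 to 1.19 within endothelin-1, where 1 is counting error alone, 1.17 to 1.73 within sacubitrilat and 4.51 to 6.43 between the groups. Abundant genes, with at least 1000 counts over the 2 libraries, varied well beyond counting error. For them it was 3.77 to 4.45 within endothelin-1, 4.16 to 17.8 within sacubitrilat and 66.1 to 93.4 between the groups. Sacubitrilat replicate 2 stood somewhat apart from the other 2 libraries of its group (up to 1.73 over all genes). The 2nd principal component set it (21.6) opposite replicate 1 of its group (-18.3), with replicate 3 at -4.67. Whatever the 3 cultures of a group shared besides their compound, such as plate position or handling, cannot be told apart from the compound. Of 14 cardiomyocyte markers all were detected, and their summed level was 30090 to 31860 CPM with endothelin-1 and 23470 to 24640 CPM with sacubitrilat. In these bulk samples fewer cells of a type and less RNA per cell cannot be told apart.

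Of 11935 genes tested, 2106 (17.6%) were called at an edgeR adjusted p under 0.05, 1199 of them higher with endothelin-1 (10.0%) and 907 lower (7.6%). Many of these differences were small: 47.8% of called genes differed by less than 1.5-fold, and 393 by more than 2-fold. A stricter test, against a difference of 1.5-fold rather than 0, called 235 genes (1.97%), 148 higher (1.24%) and 87 lower (0.729%). The CPM of the 2 groups did not overlap for 35.8% of all genes tested. The median log2 fold change over all genes tested was -0.01. Fold changes are on the log2 scale, endothelin-1 minus sacubitrilat, with SE, after TMM scaling, which corrects for a few abundant genes taking a larger share of some libraries; CPM are shares of the library total with no such scaling. Without that scaling the median over all genes was -0.14, 2554 genes were called and the split turned, with 772 higher (30.2% of calls, against 56.9% with scaling) and 1782 lower. Each fold change below would be lower by about that shift. Where the number called in a list moved by over 1.5 times without scaling, with DESeq2 or with all 12 libraries of the study in the edgeR fit, the counts higher and lower are given beside it.

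**Figure D1:**
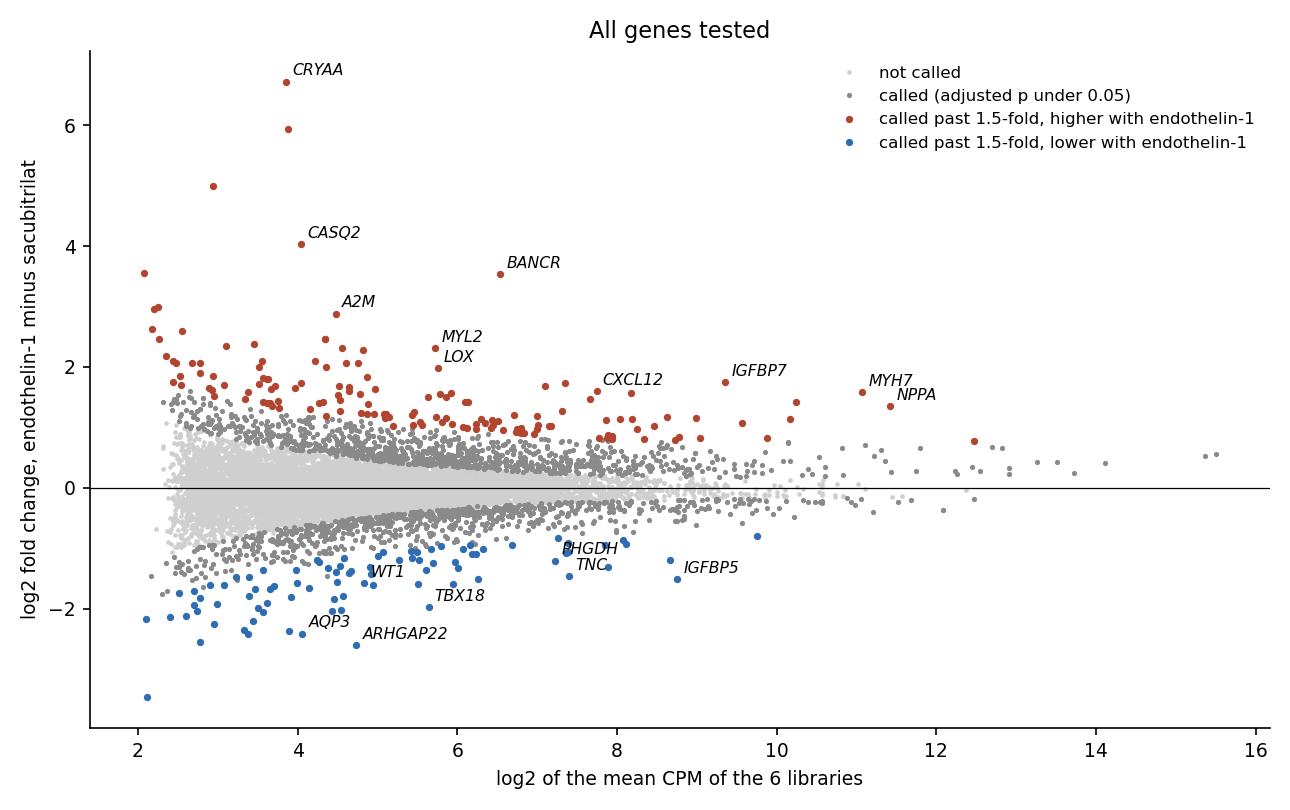
Log2 fold change (endothelin-1 minus sacubitrilat, vertical axis) against the log2 mean CPM of the 6 libraries (horizontal axis) for the 11935 genes tested. Grey points were not called or were called at less than the 1.5-fold test; red (148 genes) and blue (87 genes) points passed that test, and the extremes lie among genes of low abundance, while MYH7, NPPA and IGFBP7 stand out among abundant ones.

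Both natriuretic peptide genes were abundant, and they parted. NPPA (ENSG00000175206; chr1:11845709-11848345, minus strand on GRCh38), the gene of atrial natriuretic peptide, stood at 3866, 3992 and 3650 CPM with endothelin-1 and 1682, 1566 and 1684 CPM with sacubitrilat. No library of one group reached the other, and the difference was 1.35 ± 0.06 (edgeR adjusted p = 2.02e-19). NPPB, which encodes brain natriuretic peptide and lies next to NPPA, was at 564, 568 and 547 CPM with endothelin-1 and 619, 629.6 and 779.8 CPM with sacubitrilat. The endothelin-1 libraries lay below the others without overlap, yet NPPB was not called (-0.16 ± 0.07, edgeR adjusted p = 0.132). It was called lower without sacubitrilat replicate 1 (-0.22, edgeR adjusted p = 0.0453) and without scaling (-0.28, edgeR adjusted p = 0.00416). Reads of NPPA and of its antisense gene may be shared, since the strand setting of the counting is not given in the sources used here.

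Of 17 tested genes of the natriuretic peptide and cyclic GMP pathway, 5 were called higher and 2 lower, with a median of 0.24 against -0.01 over all genes. The share called was 41.2%, beside 17.6% of all genes. Among receptors, NPR1, the guanylate cyclase that binds both peptides, was at 3.93, 2.71 and 2.33 CPM with endothelin-1 and 13.9, 14.2 and 10.8 CPM with sacubitrilat, -1.92 ± 0.34 (edgeR adjusted p = 5.56e-05), from 15 counts with endothelin-1 and 58 with sacubitrilat. The clearance receptor gene NPR3 had 32 and 25 counts and did not pass (0.36 ± 0.39, edgeR adjusted p = 0.614). FURIN, a protease of the secretory pathway that matures propeptides, was higher by 0.80 ± 0.09 (166, 178 and 163 CPM with endothelin-1 and 104, 90.7 and 118 CPM with sacubitrilat). The 2 alpha subunits of soluble guanylate cyclase, the nitric oxide receptor, were both higher, GUCY1A2 by 0.88 ± 0.12 and GUCY1A1 by 0.44 ± 0.07. Of the phosphodiesterases that break down cyclic nucleotides, PDE3A was higher by 0.66 ± 0.17 and PDE9A, named after its values were seen, lower (-0.60 ± 0.18). The call of PDE3A was lost without sacubitrilat replicate 3 and with DESeq2 (edgeR and DESeq2 adjusted p up to 0.0557). The call of PDE9A was lost without endothelin-1 replicate 1 or 3 or sacubitrilat replicate 3 and with DESeq2 (edgeR and DESeq2 adjusted p up to 0.15). The drug's target could not be tested: MME, the gene of neprilysin, had 20 counts with endothelin-1 and 21 with sacubitrilat, too few for the filter. Of the 15 neprilysin-related and vasoactive peptidases listed, 4 were tested and 2 called. ECE1, the enzyme that makes endothelin-1 from its precursor, was higher by 0.55 ± 0.11 (109.5, 119 and 133 CPM with endothelin-1 and 72.7, 88.3 and 103 CPM with sacubitrilat). LNPEP, an aminopeptidase, was higher by 0.49 ± 0.10.

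The fetal and hypertrophy list had 14 of 23 tested members higher and 1 lower, with a median of 0.46. MYH7, the slow beta-type myosin heavy chain (ENSG00000092054; chr14:23412738-23435718, minus strand), was at 3323, 3033 and 3095 CPM with endothelin-1 and 1253, 1043 and 1140 CPM with sacubitrilat, a difference of 1.58 ± 0.07 (edgeR adjusted p = 7.85e-21). Its neighbour MYH6, the alpha heavy chain, overlapped at 1061, 904 and 909 CPM with endothelin-1 and 1137, 1053 and 1089 CPM with sacubitrilat and did not pass (-0.06 ± 0.07, edgeR adjusted p = 0.577); reads of these near-identical genes may be shared. Without scaling MYH6 was called lower (-0.19, edgeR adjusted p = 0.0318). The actin genes differed in direction. ACTA2, smooth muscle actin, was at 994, 1010 and 1007 CPM with endothelin-1 and 535, 517 and 502 CPM with sacubitrilat and higher by 1.08 ± 0.06, with almost no spread within endothelin-1. ACTA1, skeletal actin, was lower in every endothelin-1 library (149, 159 and 169 CPM with endothelin-1 and 234, 249 and 287 CPM with sacubitrilat; -0.58 ± 0.08, edgeR adjusted p = 1.61e-06), and cardiac actin ACTC1 did not pass (-0.04 ± 0.06, edgeR adjusted p = 0.763). CRYAB, a small heat shock protein of muscle, was at 223, 246 and 193 CPM with endothelin-1 and 97.7, 90.7 and 106 CPM with sacubitrilat, 1.27 ± 0.09. CSRP3, a Z-disc sensor of stretch, and RCAN1, a feedback inhibitor induced by calcineurin, were higher by less (0.61 ± 0.08 and 0.57 ± 0.11; edgeR adjusted p = 1.63e-07 and 2.38e-04).

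**Figure D2:**
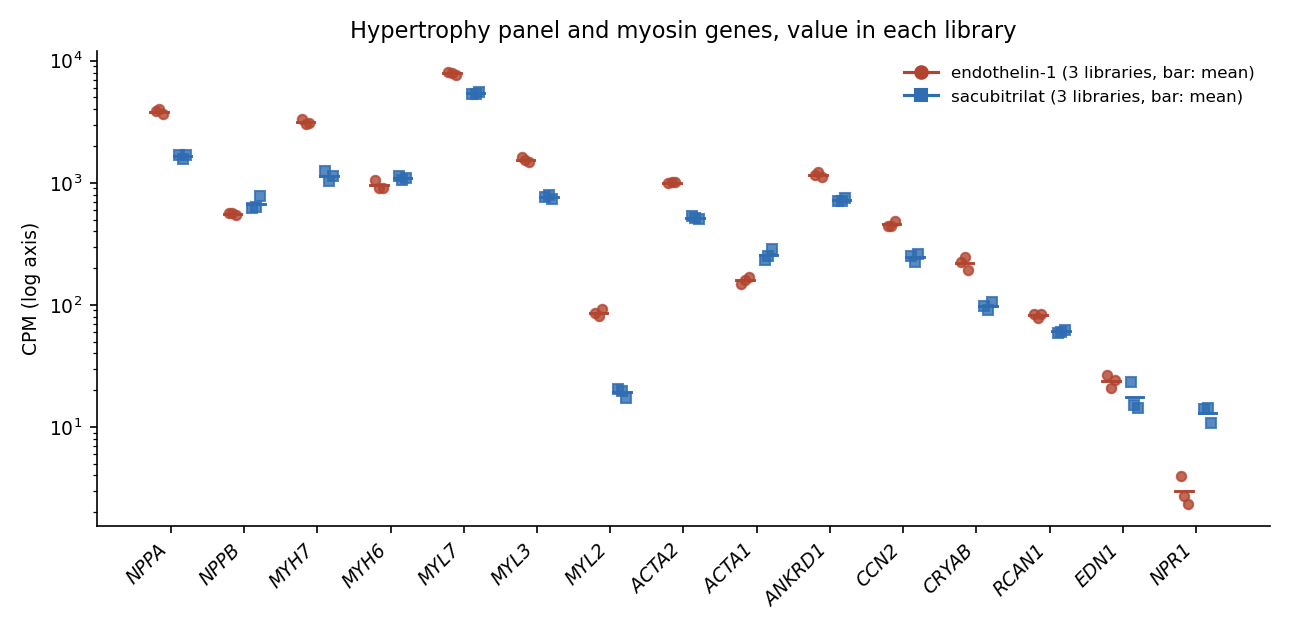
CPM on a log axis in each of the 3 endothelin-1 (circles) and 3 sacubitrilat libraries (squares) for 15 genes; bars are group means. MYH7, NPPA, MYL2, ACTA2 and CRYAB are higher in every endothelin-1 library, ACTA1 and NPR1 lower in every one, and MYH6 and EDN1 overlap.

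Genes of the endothelin pathway itself differed by small amounts. EDN1, the gene of endothelin-1, was at 26.4, 21.0 and 24.4 CPM with endothelin-1 and 23.5, 14.98 and 14.3 CPM with sacubitrilat; 1 sacubitrilat library lay among the endothelin-1 libraries, and the difference of 0.61 ± 0.21 passed narrowly (edgeR adjusted p = 0.0398). EDNRA, the receptor subtype of muscle, was at 84.2, 109.9 and 102 CPM with endothelin-1 and 98.4, 102 and 107 CPM with sacubitrilat (0.06 ± 0.10, edgeR adjusted p = 0.784), and EDNRB had 5 and 10 counts. Of 20 tested genes of the receptor's Gq cascade, 5 were higher and 1 lower, 30.0% called beside 17.6% of all genes, and none passed the 1.5-fold test (median 0.27; 2 and 0 with DESeq2). They included RGS3, which shuts off Gq (0.82 ± 0.13), the inositol trisphosphate receptor ITPR1 (0.83 ± 0.18), the receptor kinase GRK5 (0.67 ± 0.19) and the phospholipase PLCB1 (0.74 ± 0.22), whereas GNAQ, the alpha subunit of Gq, was lower (-0.35 ± 0.10). The call of EDN1 was lost without endothelin-1 replicate 1 or 3 or sacubitrilat replicate 2 or 3, without scaling, with no filter on low counts, with DESeq2 and with all 12 libraries in the fit (edgeR and DESeq2 adjusted p up to 0.261). The call of GRK5 was lost without endothelin-1 replicate 3 or sacubitrilat replicate 1 and with DESeq2 (edgeR and DESeq2 adjusted p up to 0.0944). The call of PLCB1 was lost without endothelin-1 replicate 3 or sacubitrilat replicate 3 and with DESeq2 (edgeR and DESeq2 adjusted p up to 0.15). The call of GNAQ was lost without endothelin-1 replicate 2 or sacubitrilat replicate 3 and with DESeq2 (edgeR and DESeq2 adjusted p up to 0.0958). Without scaling the split of this list was 4 higher and 4 lower. Calcineurin and calmodulin kinase genes had 7 of 25 higher and 0 lower (6 and 3 without scaling), among them the kinase gene CAMK2D at 316, 307 and 353 CPM with endothelin-1 and 278, 275 and 236 CPM with sacubitrilat (0.44 ± 0.08). The deacetylase HDAC9 was higher by 1.11 ± 0.27. Feedback genes of ERK signalling had 4 of 14 higher and 0 lower: the ETS factors ETV5 (1.30 ± 0.22) and ETV4 (0.97 ± 0.32), the inhibitor SPRY4 (1.18 ± 0.28) and the growth factor HBEGF (0.67 ± 0.12). The call of HDAC9 was lost without sacubitrilat replicate 3 and with DESeq2 (edgeR and DESeq2 adjusted p up to 0.0811). The call of ETV4 was lost without endothelin-1 replicate 1 or 2 or sacubitrilat replicate 2 or 3, without scaling, with no filter on low counts, with DESeq2, with limma-voom and with all 12 libraries in the fit (edgeR, DESeq2 and limma-voom adjusted p up to 0.237). Immediate early genes split, 4 of 17 higher and 1 lower (2 and 1 with DESeq2, 2 and 1 with all 12 libraries). JUNB was higher (78.0, 76.7 and 84.9 CPM with endothelin-1 and 50.7, 41.8 and 54.3 CPM with sacubitrilat; 0.81 ± 0.12). JUN was lower (64.8, 56.3 and 59.9 CPM with endothelin-1 and 110.2, 93.8 and 104 CPM with sacubitrilat; -0.64 ± 0.11).

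Targets of serum response factor (SRF) and its actin-sensing partners, and targets of YAP and TEAD, went both ways. The first list had 11 of 26 higher and 5 lower (6 and 2 with all 12 libraries), with a median of 0.13 that without scaling was -0.0009. The second had 6 of 18 higher and 4 lower (median 0.14, or 0.02 without scaling; 4 and 2 with DESeq2). These lists were drawn from known targets, so a motif in their promoters is a description of the lists. SRF binds the CArG box, and a window from 250 bases before to 50 bases after the start site (RefSeq, GRCh38.p14) held one in 10 of 23 SRF list members with a window (43.5%) and in 351 of 27305 promoters (1.29%). It stood in 3 of 9 windows of members called higher, 3 of 5 called lower and 4 of 9 not called. The windows of a gene that was higher (FHL2), one that was higher with overlapping groups (ACTG2) and one that was lower (ACTA1) are shown around a CArG box, which is in capitals. The ACTG2 window held 2 boxes, and the one farther from the start site is shown.
FHL2, chr2:105438580-105438639, minus strand: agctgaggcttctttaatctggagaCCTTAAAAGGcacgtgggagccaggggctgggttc
ACTG2, chr2:73892873-73892932, plus strand: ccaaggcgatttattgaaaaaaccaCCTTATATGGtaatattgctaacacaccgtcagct
ACTA1, chr1:229434157-229434216, minus strand: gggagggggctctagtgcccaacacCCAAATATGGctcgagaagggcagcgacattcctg
FHL2, a LIM-domain cofactor of SRF, was at 99.9, 99.1 and 99.5 CPM with endothelin-1 and 37.5, 45.7 and 38.9 CPM with sacubitrilat, 1.43 ± 0.12 (edgeR adjusted p = 8.85e-12). ACTG2, the enteric smooth muscle actin, was at 58.4, 46.5 and 44.8 CPM with endothelin-1 and 46.3, 35.5 and 36.5 CPM with sacubitrilat (0.48 ± 0.15, edgeR adjusted p = 0.018). MYL9, the smooth muscle regulatory light chain, was higher by 0.70 ± 0.06 and TAGLN, a smooth muscle actin-binding protein, by 0.34 ± 0.06. ACTA1, with a box of the same form 97 bases before its start site against 101 for FHL2, was among the genes that were lower, with cytoplasmic actin ACTG1 (-0.43 ± 0.07), calponin CNN3 (-0.34 ± 0.08), tropomyosin TPM4 (-0.24 ± 0.07) and integrin ITGA5 (-0.34 ± 0.11). The call of ACTG2 was lost without endothelin-1 replicate 1 or sacubitrilat replicate 2 or 3, without scaling, with DESeq2 and with all 12 libraries in the fit (edgeR and DESeq2 adjusted p up to 0.185). The call of TPM4 was lost without sacubitrilat replicate 2 and with all 12 libraries in the fit (edgeR adjusted p up to 0.373). The call of ITGA5 was lost without endothelin-1 replicate 2 or 3 or sacubitrilat replicate 1 or 3, with DESeq2 and with all 12 libraries in the fit (edgeR and DESeq2 adjusted p up to 0.153). The calls of MYL9, TAGLN and ACTG1 were lost with all 12 libraries in the fit (edgeR adjusted p up to 0.564).

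The TEAD motif GGAATG, read on both strands, was present in 7 of 15 windows of the YAP list (46.7%) and in 14.0% of all promoters. It stood in 2 of 3 windows of members called higher, 1 of 4 called lower and 2 of 4 not called. The motif is shown in capitals for the 3 called members that hold it, CCN2 and ANKRD1, which were higher, and PTPN14, which was lower and carries it on the other strand. The whole window of CCN2 held 3 matches and that of ANKRD1 2, not all of them within the stretch shown.
CCN2, chr6:131951446-131951501, minus strand: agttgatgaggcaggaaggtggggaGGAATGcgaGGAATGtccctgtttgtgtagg
ANKRD1, chr10:90921185-90921240, minus strand: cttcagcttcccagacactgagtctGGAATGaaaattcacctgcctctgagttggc
PTPN14, chr1:214551772-214551827, minus strand: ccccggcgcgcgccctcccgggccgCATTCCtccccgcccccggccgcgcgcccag
CCN2, connective tissue growth factor, stood at 441, 445 and 491 CPM with endothelin-1 and 252, 226 and 259.8 CPM with sacubitrilat (1.02 ± 0.07, edgeR adjusted p = 5.22e-14). ANKRD1, a stretch-responsive repeat protein of the sarcomere and nucleus, stood at 1148, 1227 and 1124 CPM with endothelin-1 and 705, 703 and 751 CPM with sacubitrilat (0.82 ± 0.06, edgeR adjusted p = 6.22e-13). In CCN2 and ANKRD1 the groups were far apart beside their spread. CRIM1, which binds bone morphogenetic proteins, and DLC1, a GTPase-activating protein, were also higher (0.61 ± 0.11 and 0.83 ± 0.14), and lower were FJX1 (-0.61 ± 0.14), the phosphatase PTPN14 (-0.48 ± 0.13), the receptor kinase AXL (-0.39 ± 0.11) and the LIM protein AJUBA (-0.61 ± 0.17). The call of PTPN14 was lost without endothelin-1 replicate 2 (edgeR adjusted p = 0.0567). The call of AXL was lost without sacubitrilat replicate 3 and with DESeq2 (edgeR and DESeq2 adjusted p up to 0.0647). The call of AJUBA was lost without endothelin-1 replicate 1 or sacubitrilat replicate 1 and with DESeq2 (edgeR and DESeq2 adjusted p up to 0.105).

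Most genes of the contractile apparatus were higher with endothelin-1. Sarcomere genes had 26 of 36 tested members higher and 1 lower, 75.0% called against 17.6% of all genes, with a median of 0.49 (16 and 0 with all 12 libraries). The ventricular light chains were among the largest differences. MYL2 (ENSG00000111245; chr12:110910819-110920722, minus strand), the regulatory light chain of mature ventricle, was at 85.9, 81.4 and 91.9 CPM with endothelin-1 and 20.6, 19.7 and 17.4 CPM with sacubitrilat, 2.31 ± 0.15 (edgeR adjusted p = 2.40e-15). MYL3, the essential light chain, was at 1616, 1529 and 1477 CPM with endothelin-1 and 762, 801 and 732 CPM with sacubitrilat, 1.14 ± 0.06. MYH7B, a slow myosin related to MYH7, was at 89.9, 76.5 and 99.0 CPM with endothelin-1 and 29.4, 35.5 and 32.9 CPM with sacubitrilat (1.58 ± 0.13). TNNI3, the troponin I of adult heart, was at 145, 136 and 135 CPM with endothelin-1 and 79.0, 71.8 and 78.6 CPM with sacubitrilat (0.98 ± 0.10). Myosin-binding protein MYBPC3 (0.79 ± 0.08), titin TTN (0.66 ± 0.07) and alpha-actinin ACTN2 (0.53 ± 0.07), named because it carries the tag, differed by less. All 7 of these genes lay higher in every endothelin-1 library than in any sacubitrilat library. Apart from ACTN2 they were named as called genes of low p, and the groups did not overlap for 35.8% of all genes tested. MYOM2, an M-band protein, differed most (18.0, 12.2 and 12.8 CPM with endothelin-1 and 2.20, 2.37 and 4.10 CPM with sacubitrilat; 2.34 ± 0.34), and filamin FLNC was the member that was lower (-0.25 ± 0.07). The call of FLNC was lost without endothelin-1 replicate 2 and with all 12 libraries in the fit (edgeR adjusted p up to 0.175). The call of TTN was lost with all 12 libraries in the fit (edgeR adjusted p = 0.202). Cardiomyocyte markers, which share many of these genes, had 11 of 14 higher and 0 lower (6 and 0 with all 12 libraries); what part a different share of cardiomyocytes had in the sarcomere genes was not tested.

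Chamber markers did not follow one chamber. Ventricular markers had 6 of 9 higher and 0 lower, with a median of 0.71, including the cofactor gene LBH (0.71 ± 0.07) and the gap junction gene GJA1 (0.44 ± 0.11). The 3 ventricular markers that were not called, all genes of transcription factors, had estimates below 0 (-0.34 to -0.06). Atrial markers had 5 of 10 higher and 4 lower (3 and 2 with all 12 libraries). Besides NPPA, the atrial light chain MYL7 was at 8032, 7993 and 7637 CPM with endothelin-1 and 5356, 5346 and 5519 CPM with sacubitrilat (0.67 ± 0.06), and MYL4 (0.53 ± 0.06) and sarcolipin SLN were higher. The calls of MYL7 and MYL4 were lost with all 12 libraries in the fit (edgeR adjusted p up to 0.338). The atrial transcription factor NR2F2 was at 55.6, 37.3 and 51.2 CPM with endothelin-1 and 104, 101 and 97.8 CPM with sacubitrilat (-0.92 ± 0.12). Also lower were NR2F1 (3.37, 2.71 and 1.16 CPM with endothelin-1 and 8.81, 11.8 and 12.3 CPM with sacubitrilat; -2.04 ± 0.38) and the potassium channel KCNJ3 (-0.96 ± 0.23). Cardiac transcription factors were split, 8 of 22 higher and 4 lower. HOPX, a homeodomain cofactor expressed as cardiomyocytes mature, was at 43.2, 33.9 and 39.5 CPM with endothelin-1 and 7.34, 7.10 and 10.2 CPM with sacubitrilat (2.32 ± 0.21), and HAND2 was higher by 0.58 ± 0.09. GATA4 did not pass (-0.10 ± 0.08, edgeR adjusted p = 0.452), though without scaling it was called lower (-0.23, edgeR adjusted p = 0.044).

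Genes of calcium storage and release had 10 of 21 higher and 1 lower (median 0.43; 7 and 0 with all 12 libraries). CASQ2, cardiac calsequestrin, the calcium buffer of the sarcoplasmic reticulum, was at 29.2, 38.0 and 25.6 CPM with endothelin-1 and 1.47, 2.37 and 2.05 CPM with sacubitrilat (4.03 ± 0.32, edgeR adjusted p = 1.84e-12), from 152 and 9 counts. PLN, phospholamban, the inhibitor of the calcium pump, was at 629, 652 and 679.9 CPM with endothelin-1 and 375, 398 and 427 CPM with sacubitrilat (0.83 ± 0.07). HRC, a luminal calcium-binding protein, was at 186, 176 and 158 CPM with endothelin-1 and 80.1, 76.5 and 90.1 CPM with sacubitrilat (1.19 ± 0.10). The small pump inhibitor SLN was at 14.6, 19.7 and 19.8 CPM with endothelin-1 and 2.94, 6.31 and 2.56 CPM with sacubitrilat (2.37 ± 0.31). The release channel RYR2 and its anchor TRDN were higher by 0.67 ± 0.08 and 0.66 ± 0.10. Calreticulin, CALR, the calcium-binding chaperone of the endoplasmic reticulum, was the member called lower (760.4, 677 and 707 CPM with endothelin-1 and 944, 1091 and 977 CPM with sacubitrilat; -0.36 ± 0.07). The call of CALR was lost with all 12 libraries in the fit (edgeR adjusted p = 0.193). Ion channels and pumps had 7 of 17 higher and 1 lower. The potassium channel KCNN2 was at 47.7, 33.2 and 37.8 CPM with endothelin-1 and 23.5, 17.4 and 15.9 CPM with sacubitrilat (1.23 ± 0.18). The sodium pump beta subunit ATP1B1 was at 286, 267 and 307 CPM with endothelin-1 and 211, 184 and 162 CPM with sacubitrilat (0.77 ± 0.08).

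**Figure D3:**
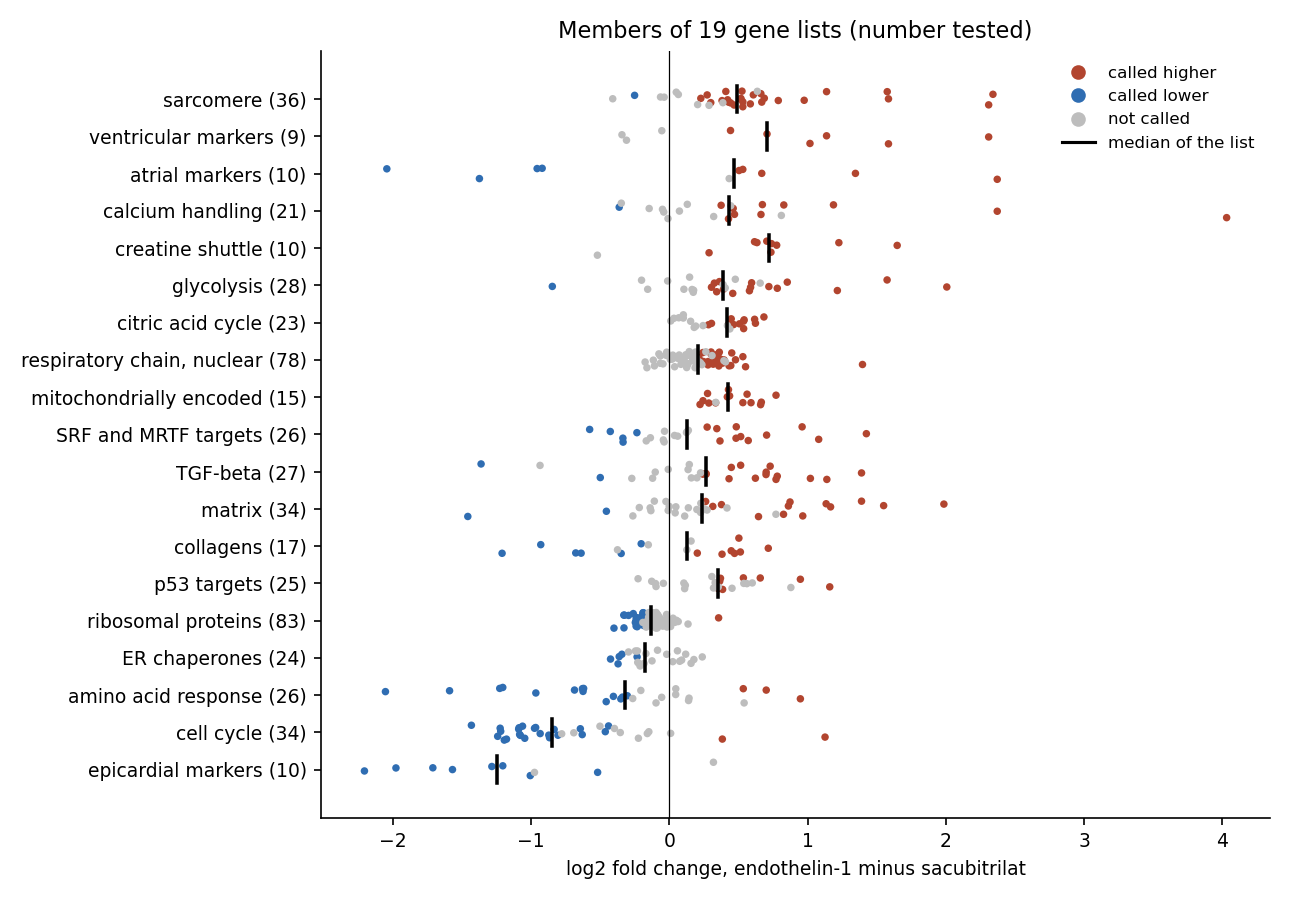
Log2 fold change (endothelin-1 minus sacubitrilat) of every tested member of 19 gene lists, 1 point per gene, red where called higher, blue where called lower, grey where not called; black bars are list medians. Sarcomere, creatine shuttle and mitochondrially encoded genes lie mostly right of 0, cell cycle genes and epicardial markers mostly left of it, and collagens and SRF targets on both sides.

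Many genes of energy metabolism were higher as well. The creatine phosphate shuttle, which carries energy from mitochondria to myofibrils, had 9 of 10 higher and 0 lower (median 0.72). Mitochondrial creatine kinase CKMT2 was at 23.6, 25.1 and 21.5 CPM with endothelin-1 and 5.88, 7.88 and 9.73 CPM with sacubitrilat (1.65 ± 0.24). The cytosolic muscle kinase CKM was at 41.4, 48.2 and 51.2 CPM with endothelin-1 and 19.1, 23.6 and 22.5 CPM with sacubitrilat (1.23 ± 0.16). The brain-type kinase CKB was at 202, 188 and 193 CPM with endothelin-1 and 115, 125 and 131 CPM with sacubitrilat (0.78 ± 0.09). Glycolysis genes had 15 of 28 higher and 1 lower (median 0.39), the lower one being PFKFB3, which makes an activator of glycolysis (-0.85 ± 0.25). ENO3, the muscle enolase, was at 441, 417 and 415 CPM with endothelin-1 and 158, 157 and 151 CPM with sacubitrilat (1.57 ± 0.07, edgeR adjusted p = 5.52e-19). SLC2A4, the insulin-responsive glucose transporter, was at 17.4, 20.4 and 16.3 CPM with endothelin-1 and 8.08, 3.15 and 3.58 CPM with sacubitrilat (2.01 ± 0.29). ALDOA and the hexokinase HK1 were higher by 0.58 ± 0.06 and 0.78 ± 0.10. The citric acid cycle had 12 of 23 higher and 0 lower (median 0.42), including IDH2 (0.62 ± 0.07) and MDH2 (0.46 ± 0.07). In fatty acid oxidation 6 of 28 were higher and 1, the lipase inhibitor ANGPTL4 (-1.25 ± 0.38), lower (3 and 0 with DESeq2, 4 and 0 with all 12 libraries). The share called in this list was nearer to the 17.6% of all genes than in the other lists of this paragraph. Its median was 0.20, or 0.08 without scaling. Its member FABP3, the fatty acid carrier of heart, was at 289, 312 and 277 CPM with endothelin-1 and 108, 93.0 and 135 CPM with sacubitrilat (1.48 ± 0.09, edgeR adjusted p = 1.52e-15). The call of PFKFB3 was lost without endothelin-1 replicate 2 or sacubitrilat replicate 1 and with DESeq2 (edgeR and DESeq2 adjusted p up to 0.125). The call of ANGPTL4 was lost without endothelin-1 replicate 1 or 2 or sacubitrilat replicate 1, with no filter on low counts and with DESeq2 (edgeR and DESeq2 adjusted p up to 0.221).

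The nuclear-encoded respiratory chain had 31 of 78 higher and 0 lower with a median of 0.20. That count fell to 14 higher and 1 lower without scaling, to 21 and 0 with DESeq2 and to 10 and 0 with all 12 libraries in the edgeR fit. Its largest difference was COX6A2, the heart and muscle form of a cytochrome oxidase subunit (20.8, 15.6 and 15.7 CPM with endothelin-1 and 7.34, 7.10 and 7.17 CPM with sacubitrilat; 1.397 ± 0.26). ATP5F1B of ATP synthase was at 917, 964 and 925 CPM with endothelin-1 and 752, 730.1 and 754 CPM with sacubitrilat (0.45 ± 0.06). The call of ATP5F1B was lost with all 12 libraries in the fit (edgeR adjusted p = 0.123). The 15 mitochondrially encoded genes had 14 higher and 0 lower (median 0.43), including the ribosomal RNA gene MT-RNR1 (0.77 ± 0.06) and MT-ND3 (0.66 ± 0.07). All features with a symbol starting in MT-, which include these 15, made up 20.15% ± 0.07 of the endothelin-1 libraries and 15.7% ± 1.27 of the sacubitrilat libraries (SD, n = 3). The difference was 4.41 points with no overlap (two-sided exact permutation p = 0.1, the smallest that 3 against 3 allows). Sacubitrilat replicate 2, at 17.2%, lay between the endothelin-1 libraries and the other 2 of its group, and the difference was 5.14 without it. With the vehicle and combined libraries in the edgeR fit, 0 of the 15 genes were called (4 higher at an unadjusted p under 0.05); on the 6 libraries DESeq2 called 9 and limma-voom 14 higher. Copies of mitochondrial genes in the nucleus may share these reads.

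**Figure D4:**
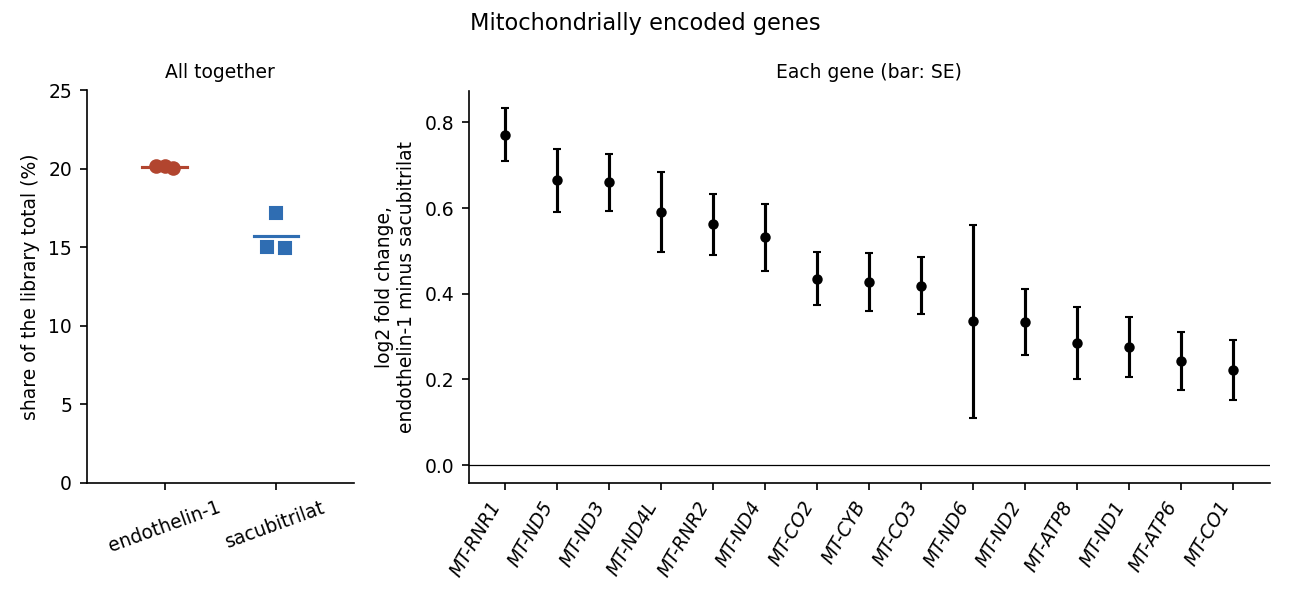
Left, share of each library's counts on mitochondrially encoded genes (%), 3 libraries per group with the mean as a bar; right, log2 fold change with SE of each of the 15 genes. The endothelin-1 libraries lie at 20.07% to 20.2% and the sacubitrilat libraries at 14.99% to 17.2%, and every gene lies above 0.

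Cell cycle genes went the other way, 2 of 34 higher and 23 lower, with a median of -0.85. DNA topoisomerase TOP2A was at 34.2, 33.9 and 36.6 CPM with endothelin-1 and 99.2, 91.8 and 79.9 CPM with sacubitrilat (-1.22 ± 0.13, edgeR adjusted p = 2.91e-09). The mitotic activator CDC20 was at 40.7, 49.5 and 45.4 CPM with endothelin-1 and 99.2, 118 and 98.3 CPM with sacubitrilat (-1.09 ± 0.12). The mitotic cyclin CCNB2 was at 15.2, 14.9 and 15.7 CPM with endothelin-1 and 45.5, 47.3 and 43.5 CPM with sacubitrilat (-1.43 ± 0.17). Survivin, BIRC5, was at 28.1, 21.7 and 32.0 CPM with endothelin-1 and 63.2, 64.7 and 61.4 CPM with sacubitrilat (-1.06 ± 0.15). The 2 members that were higher were D-type cyclins, which act before DNA replication. CCND1 was at 323, 291 and 316 CPM with endothelin-1 and 173, 149.8 and 146 CPM with sacubitrilat (1.13 ± 0.08). CCND2, named to complete the pair, was higher by 0.38 ± 0.08. Among targets of p53 8 of 25 were higher and 0 lower (median 0.35; 4 and 0 without scaling, 4 and 0 with DESeq2). The share called was 32%, beside 17.6% of all genes. The cell cycle inhibitor CDKN1A was at 639, 716 and 702 CPM with endothelin-1 and 331, 305 and 362 CPM with sacubitrilat (1.16 ± 0.07, edgeR adjusted p = 3.64e-16). ZMAT3, an RNA-binding protein, was higher by 0.66 ± 0.08. CDKN2A, which encodes a further cell cycle inhibitor, p16, and an alternative product, was at 29.2, 29.9 and 31.4 CPM with endothelin-1 and 7.34, 2.37 and 11.3 CPM with sacubitrilat (2.10 ± 0.25).

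Epicardial markers were lower too, 0 of 10 higher and 8 lower with a median of -1.25. The epicardium is the outer cell layer of the heart and gives rise to fibroblasts and smooth muscle. TBX18, its T-box factor (ENSG00000112837; chr6:84687351-84764519, minus strand), was at 18.5, 21.0 and 17.4 CPM with endothelin-1 and 70.5, 82.0 and 89.6 CPM with sacubitrilat (-1.98 ± 0.15, edgeR adjusted p = 8.33e-13). The zinc finger factor WT1 was at 10.9, 14.9 and 14.5 CPM with endothelin-1 and 41.9, 44.1 and 45.1 CPM with sacubitrilat (-1.57 ± 0.18). The retinoic acid enzyme ALDH1A2 was at 4.49, 2.71 and 3.49 CPM with endothelin-1 and 15.4, 18.1 and 21.0 CPM with sacubitrilat (-2.21 ± 0.30). BNC2, a zinc finger protein, was at 12.3, 11.5 and 14.0 CPM with endothelin-1 and 33.8, 33.1 and 34.3 CPM with sacubitrilat (-1.28 ± 0.20). ITLN1, a mesothelial lectin, was at 2.81, 2.71 and 2.91 CPM with endothelin-1 and 10.3, 10.2 and 10.2 CPM with sacubitrilat from 14 and 47 counts. The summed level of the 12 epicardial markers was 214 to 223 CPM with endothelin-1 and 394 to 458 CPM with sacubitrilat. What part a smaller or larger number of such cells had in the lower epicardial and cell cycle genes was not tested.

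**Figure D5:**
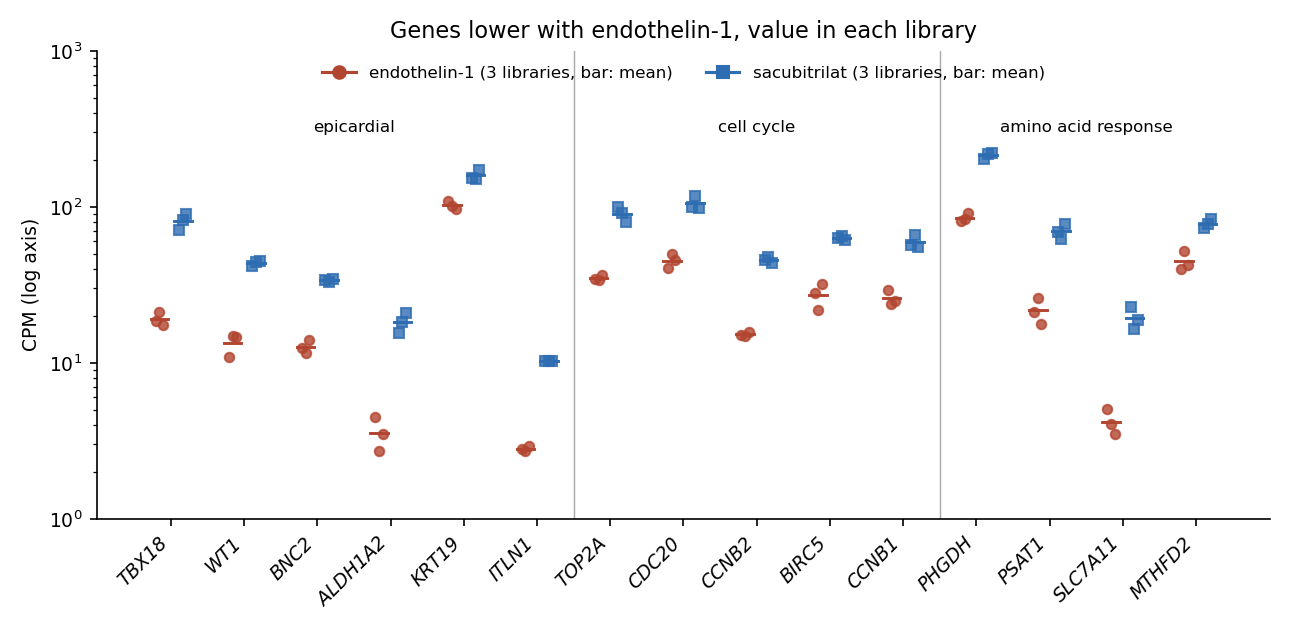
CPM on a log axis in each library for 6 epicardial markers, 5 cell cycle genes and 4 genes of the amino acid response; circles are endothelin-1, squares sacubitrilat, bars group means. In all 15 genes every endothelin-1 library lies below every sacubitrilat library. The genes were taken from the called members of lowest p in their lists, which favours groups that lie apart. For 35.8% of all genes tested the groups did not overlap, in either direction.

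Markers of the other mesenchymal cells that could be present were mixed or higher. Fibroblast markers were mixed, 4 of 12 higher and 5 lower (2 and 2 with all 12 libraries). Periostin POSTN was at 79.7, 81.4 and 77.3 CPM with endothelin-1 and 38.2, 33.1 and 21.0 CPM with sacubitrilat (1.55 ± 0.15), and S100A4 was higher by 1.05 ± 0.14. The receptor PDGFRA was at 51.4, 41.4 and 48.3 CPM with endothelin-1 and 98.4, 112 and 83.5 CPM with sacubitrilat (-0.90 ± 0.13), and THY1 was lower (-0.80 ± 0.14). Their summed level was 6971 to 7815 CPM with endothelin-1 and 7283 to 7588 with sacubitrilat, which overlap. Smooth muscle markers had 6 of 11 higher and 0 lower. Smooth muscle myosin MYH11 was at 167, 175 and 162 CPM with endothelin-1 and 91.8, 82.8 and 91.7 CPM with sacubitrilat (1.04 ± 0.09). Their summed level was 4351 to 4422 CPM against 3517 to 3672. Calponin CNN1, of the same list, did not pass (0.04 ± 0.06, edgeR adjusted p = 0.775). Of 12 endothelial markers 1 reached the filter, of 12 macrophage and blood markers none did, and their summed levels were 16.8 to 20.5 CPM and 6.24 to 10.45 CPM over the 6 libraries. Endoderm and liver markers summed to 69.04 to 105 CPM, with 1 of 5 higher (0 and 0 without scaling, 0 and 0 with DESeq2, 0 and 0 with all 12 libraries). That share, 20%, was near the 17.6% called of all genes. Neural and neural crest markers summed to 536 to 587 CPM over the 6 libraries, and their ranges overlapped. Of the 12 listed 4 were tested, and 1, the eye and brain factor PAX6, was higher (0.84 ± 0.28, edgeR adjusted p = 0.0302), whereas the neural crest factors SOX10 and FOXD3 had 0 counts in all 6. The call of PAX6 was lost without endothelin-1 replicate 1, 2 or 3 or sacubitrilat replicate 1, without scaling, with no filter on low counts, with DESeq2 and with all 12 libraries in the fit (edgeR and DESeq2 adjusted p up to 0.231). Pluripotency markers summed to 29.8 to 47.1 CPM with endothelin-1 and 74.5 to 89.5 CPM with sacubitrilat. The 1 of 10 that reached the filter, PODXL, a surface sialomucin that other cell types also carry, was at 23.6, 30.5 and 31.4 CPM with endothelin-1 and 55.8, 56.0 and 69.6 CPM with sacubitrilat and lower (-0.99 ± 0.15, edgeR adjusted p = 3.41e-06). The pluripotency factors NANOG and POU5F1 had 2 counts each with endothelin-1 and 3 and 0 with sacubitrilat. Epithelial markers had 1 of 8 higher and 3 lower (0 and 1 with all 12 libraries), and their summed level was 6627 to 6923 CPM with endothelin-1 and 8291 to 8528 CPM with sacubitrilat.

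Matrix genes were more often higher than lower, whereas collagens were divided. Matrix proteins other than collagens had 13 of 34 higher and 2 lower. The basement membrane proteoglycan HSPG2 was at 542, 521 and 535 CPM with endothelin-1 and 267, 244 and 265 CPM with sacubitrilat (1.17 ± 0.07, edgeR adjusted p = 2.21e-16). The fibrillin FBN2 was at 361, 401 and 411 CPM with endothelin-1 and 192, 185 and 203 CPM with sacubitrilat (1.13 ± 0.07). LOX, which crosslinks collagen, was at 82.5, 96.3 and 75.0 CPM with endothelin-1 and 24.97, 22.1 and 22.5 CPM with sacubitrilat (1.99 ± 0.15). Tenascin C, TNC, an adhesion-modulating matrix protein of remodelling tissue, was at 79.4, 83.5 and 91.9 CPM with endothelin-1 and 231, 255 and 276 CPM with sacubitrilat and lower (-1.46 ± 0.09, edgeR adjusted p = 2.29e-15), and the fibulin FBLN2 was lower by less (-0.46 ± 0.14). Of 17 collagen genes 7 were higher and 6 lower (median 0.13, or -0.0005 without scaling; 3 and 3 with all 12 libraries). COL6A2 of type VI was at 193, 159 and 184 CPM with endothelin-1 and 375, 386 and 361 CPM with sacubitrilat (-0.93 ± 0.08), and COL6A1 was lower too (-0.64 ± 0.08). COL4A1 (0.51 ± 0.07) and COL4A2 (0.47 ± 0.06) of type IV were higher. Genes of TGF-beta signalling had 15 of 27 higher and 2 lower (median 0.26; 11 and 0 with DESeq2), the lower ones being GREM1, which blocks bone morphogenetic proteins (-1.36 ± 0.35), and the repressor TGIF1 (-0.50 ± 0.16). Among its ligands and their carriers, LTBP1, which binds latent TGF-beta, was at 352, 329.8 and 377 CPM with endothelin-1 and 179, 162 and 182 CPM with sacubitrilat (1.14 ± 0.08). The activin subunit INHBA was at 192, 179 and 189 CPM with endothelin-1 and 119, 93.8 and 91.7 CPM with sacubitrilat (1.02 ± 0.09). The call of FBLN2 was lost without endothelin-1 replicate 1 or 3 and with DESeq2 (edgeR and DESeq2 adjusted p up to 0.132). The call of TGIF1 was lost without endothelin-1 replicate 2 or 3 or sacubitrilat replicate 1 or 2 and with DESeq2 (edgeR and DESeq2 adjusted p up to 0.132). The call of GREM1 was lost with DESeq2 (DESeq2 adjusted p = 0.0967). The call of COL4A2 was lost with all 12 libraries in the fit (edgeR adjusted p = 0.069).

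Genes of amino acid synthesis and uptake that ATF4 activates under stress had 3 of 26 higher and 14 lower, with a median of -0.32. PHGDH, the first enzyme of serine synthesis, was at 81.4, 83.5 and 90.7 CPM with endothelin-1 and 203, 217 and 222 CPM with sacubitrilat (-1.21 ± 0.09, edgeR adjusted p = 3.14e-13). PSAT1, which follows it in the pathway, was at 21.1, 26.1 and 17.7 CPM with endothelin-1 and 69.4, 61.9 and 77.3 CPM with sacubitrilat (-1.59 ± 0.15). SLC7A11, the cystine transporter, was at 5.05, 4.07 and 3.49 CPM with endothelin-1 and 22.8, 16.6 and 18.9 CPM with sacubitrilat (-2.06 ± 0.28). The glutamine transporter SLC1A5 and the folate enzyme MTHFD2 were lower by smaller amounts (-0.63 ± 0.09 and -0.69 ± 0.13). Not every member was called lower, as 2 genes added after their values were seen show. PSPH, a further serine synthesis gene, overlapped and did not pass (0.54 ± 0.21, edgeR adjusted p = 0.0705). ATF4 itself did not pass either (-0.27 ± 0.11, edgeR adjusted p = 0.105), although its endothelin-1 libraries lay below the sacubitrilat libraries without overlap. The 3 members that were higher included GDF15, a stress cytokine (37.0, 41.4 and 45.9 CPM with endothelin-1 and 28.6, 30.0 and 15.4 CPM with sacubitrilat; 0.95 ± 0.18), which is also a target of p53; the other two were the hormone STC2 (0.70 ± 0.14) and the lipoprotein receptor VLDLR (0.53 ± 0.11). The ATF4-type element TGATGNAA, on either strand, stood in 6 of 23 windows of this list (26.1%) and in 3.67% of all promoters. Split by call, it stood in 0 of 3 windows of members called higher, 3 of 12 called lower and 2 of 7 not called. It is shown for 2 of those that were lower, named because they hold it, in capitals.
ASNS, chr7:97872444-97872501, minus strand: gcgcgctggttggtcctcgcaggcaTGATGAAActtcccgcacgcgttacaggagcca
CHAC1, chr15:40953237-40953294, plus strand: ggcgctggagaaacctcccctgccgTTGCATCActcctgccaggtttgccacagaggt
ASNS, asparagine synthetase, was at 13.8, 17.6 and 13.7 CPM with endothelin-1 and 30.1, 31.5 and 33.3 CPM with sacubitrilat (-0.97 ± 0.19). CHAC1, which degrades glutathione, was at 4.49, 6.11 and 10.47 CPM with endothelin-1 and 20.6, 18.1 and 16.4 CPM with sacubitrilat (-1.23 ± 0.27). In both the groups did not overlap, as in 35.8% of all genes tested.

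Chaperones of the endoplasmic reticulum, which the unfolded protein response controls, had 0 of 24 higher and 5 lower (20.8% called, near the 17.6% of all genes), with a median of -0.18 and 13 lower without scaling (0 and 3 with DESeq2, 0 and 2 with all 12 libraries). The ER stress response element, CCAAT and CCACG spaced by 9 bases on either strand, stood in 7 of 23 windows (30.4%) and in 22 of 27305 promoters (0.0806%). It is shown for the 2 called members that hold it.
HSPA5, chr9:125241366-125241434, minus strand: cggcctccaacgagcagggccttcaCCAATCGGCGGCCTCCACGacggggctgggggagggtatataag
CALR, chr19:12938359-12938427, plus strand: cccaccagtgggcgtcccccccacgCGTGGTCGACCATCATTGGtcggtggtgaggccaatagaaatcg
HSPA5, the main luminal chaperone BiP, was at 314, 305 and 286 CPM with endothelin-1 and 373, 367 and 415 CPM with sacubitrilat (-0.23 ± 0.07, edgeR adjusted p = 0.0162), a small difference. The call of HSPA5 was lost without endothelin-1 replicate 3 or sacubitrilat replicate 3 and with all 12 libraries in the fit (edgeR adjusted p up to 0.203). The element also stood in 5 of 18 windows of members that were not called. Cholesterol synthesis genes, with 2 of 23 higher and 3 lower (1 and 1 with DESeq2, 1 and 1 with all 12 libraries), were also near the background; the sterol element TCACNCCAC stood in 1 of 18 of their windows and in 1.15% of all promoters.

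Many ribosomal protein genes were lower by small amounts. Of 83 tested, 29 were lower and 1, RPS27L, a target of p53, higher (0.36 ± 0.09), with a median of -0.13 that without scaling was -0.26, with 62 lower. With all 12 libraries in the edgeR fit 0 were lower (2 at an unadjusted p under 0.05), and on the 6 libraries DESeq2 called 25 and limma-voom 34 lower. The call of RPS27L was lost without endothelin-1 replicate 3 and without scaling (edgeR adjusted p up to 0.0611). The call of RPS2 was lost with all 12 libraries in the fit (edgeR adjusted p = 0.267). RPS2 was at 1930, 1986 and 1905 CPM with endothelin-1 and 2789, 2687 and 2900 CPM with sacubitrilat (-0.40 ± 0.06), and reads of such genes may be shared with their many pseudogenes. Proteasome subunits had 0 of 35 higher and 3 lower (8.57% called; 0 and 14 without scaling). Mitochondrial ribosomal proteins had 2 of 77 higher and 1 lower (3.90% called; 1 and 5 without scaling, 1 and 0 with DESeq2, 1 and 0 with all 12 libraries).

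Of tested genes in the NF-kB, Wnt and Notch and heat shock lists 23.8% to 31.6% were called, beside 17.6% of all genes. NF-kB targets had 3 of 10 higher and 0 lower, among them CXCL12, a chemokine (335, 314 and 301 CPM with endothelin-1 and 103, 106 and 128 CPM with sacubitrilat; 1.60 ± 0.09). Wnt and Notch genes had 2 of 21 higher, the Wnt antagonist DKK3 (0.89 ± 0.09) and the Notch ligand JAG1 (128, 164 and 144 CPM with endothelin-1 and 88.9, 72.5 and 88.1 CPM with sacubitrilat; 0.91 ± 0.10), and 3 lower, SFRP1 (-0.41 ± 0.06), FZD7 (-0.57 ± 0.13) and the Wnt effector TCF7 (-1.31 ± 0.42; 2 and 1 with all 12 libraries). Heat shock genes had 4 of 19 higher and 2 lower; besides the crystallins the muscle chaperones HSPB7 (0.45 ± 0.06) and HSPB8 (0.62 ± 0.14) were higher, and the cochaperone DNAJA1 (-0.47 ± 0.10) and the chaperonin subunit CCT2 (-0.34 ± 0.09) lower. The call of TCF7 was lost without endothelin-1 replicate 1 or 2 or sacubitrilat replicate 3, with DESeq2 and with all 12 libraries in the fit (edgeR and DESeq2 adjusted p up to 0.237). The call of CCT2 was lost without endothelin-1 replicate 1 or sacubitrilat replicate 3 (edgeR adjusted p up to 0.075). The calls of SFRP1 and HSPB7 were lost with all 12 libraries in the fit (edgeR adjusted p up to 0.26).

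The largest differences of all held genes of no single kind. CRYAA, a lens crystallin of the small heat shock family (chr21:43169008-43172805, plus strand), was at 30.0, 24.8 and 31.1 CPM with endothelin-1 and 0, 0.394 and 0.512 CPM with sacubitrilat. With 144 and 2 counts its ratio was 66.3 (95% counting interval 18.03 to 553). A feature without a symbol that the file marks as an artifact had nearly the same CPM in every library, so reads may be shared and the level of CRYAA is uncertain. BANCR, a long noncoding RNA, was at 186, 155 and 167 CPM with endothelin-1 and 16.2, 17.4 and 14.8 CPM with sacubitrilat (3.53 ± 0.14, edgeR adjusted p = 1.30e-21). The protease inhibitor A2M was at 38.2, 42.8 and 36.1 CPM with endothelin-1 and 4.41, 6.31 and 6.14 CPM with sacubitrilat (2.88 ± 0.23). Extracellular superoxide dismutase SOD3 was at 47.7, 48.9 and 41.9 CPM with endothelin-1 and 11.8, 9.46 and 9.73 CPM with sacubitrilat (2.28 ± 0.19). Angiotensinogen, AGT, the precursor of angiotensin, was at 22.4, 16.3 and 18.0 CPM with endothelin-1 and 3.67, 3.94 and 6.14 CPM with sacubitrilat (2.10 ± 0.28). The axonal motor KIF1A (2.07 ± 0.20), the mesendoderm factor MIXL1 (2.00 ± 0.22) and PTCHD4, a p53-responsive patched relative (1.83 ± 0.19), were further higher genes. Having the groups apart was a condition for naming the largest differences.

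Among genes that were lower, ARHGAP22, an activator of GTP hydrolysis by Rac, was at 8.42, 2.71 and 8.72 CPM with endothelin-1 and 60.2, 41.8 and 37.9 CPM with sacubitrilat (-2.60 ± 0.25, edgeR adjusted p = 2.21e-10). The water and glycerol channel AQP3 was at 2.81, 4.75 and 6.98 CPM with endothelin-1 and 33.05, 25.2 and 27.1 CPM with sacubitrilat (-2.41 ± 0.27). The integrin ITGB8, which activates latent TGF-beta, was at 4.49, 3.39 and 5.23 CPM with endothelin-1 and 26.4, 24.4 and 25.1 CPM with sacubitrilat (-2.37 ± 0.26). Several are best known from neurons: the neurofilament NEFM (1.12, 2.71 and 5.23 CPM with endothelin-1 and 14.7, 17.7 and 18.9 CPM with sacubitrilat; -2.36 ± 0.34), the glutamate receptor GRIA4 (-1.81 ± 0.24) and the growth cone protein GAP43 (-1.80 ± 0.22). Transcription factors among them were LHX1 (2.25, 2.71 and 4.07 CPM with endothelin-1 and 16.9, 17.4 and 18.9 CPM with sacubitrilat; -2.41 ± 0.31) and TWIST1 (7.30, 2.04 and 4.65 CPM with endothelin-1 and 21.3, 18.9 and 19.5 CPM with sacubitrilat; -1.90 ± 0.29), both from few counts. LINC02381, a noncoding RNA (-1.83 ± 0.22), TMSB15A (-1.99 ± 0.30) and SPRR2F (-2.01 ± 0.21) were also among them, the latter 2 with near-identical relatives that may share reads. Groups that did not overlap were a condition for naming these genes, and 35.8% of all genes tested met it.

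The vehicle and combined libraries held 80844 to 316932 counts, and a count of 0 there allows up to 37.1 CPM. Their values are therefore set beside the deep ones for a few genes, chosen after the values were seen, with no test. MYL3 was at 1208, 3068 and 1828 CPM with vehicle and at 6015, 2374 and 1615 CPM with both compounds. ENO3 was at 289, 186 and 223 CPM with vehicle and at 401, 356 and 422 CPM with both compounds. In both genes the 3 sacubitrilat libraries lay below all 6 of these. IGFBP5 was at 470.1, 421 and 586 CPM with vehicle and at 183, 271 and 185 CPM with both compounds. IGFBP5, which binds insulin-like growth factors, was at 218, 193 and 220.1 CPM with endothelin-1 and 624, 684 and 649 CPM with sacubitrilat, so the sacubitrilat libraries lay above all 6 and the endothelin-1 libraries among those with both compounds. PHGDH was at 265, 210.3 and 281 CPM with vehicle and at 115, 302 and 252 CPM with both compounds. The endothelin-1 libraries lay below all 6 of these. ACTA2 was at 306, 86.6 and 223 CPM with vehicle and at 160.4, 167 and 215 CPM with both compounds. Both deep groups lay above all 6 of these. NPPA was at 855, 210 and 615 CPM with vehicle and at 516, 1077 and 919 CPM with both compounds. NPPB was at 120, 24.7 and 82.0 CPM with vehicle and at 34.4, 44.1 and 59.3 CPM with both compounds, from 54 and 18 counts. For NPPA and NPPB too, both deep groups lay above all 6 shallow libraries. Endoderm and liver markers summed to 254 to 915 CPM in the 6 shallow libraries against 69.04 to 105 CPM in the deep ones, and the ranges did not overlap.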

How the data were processed

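Total RNA of 12 cultures was made into stranded 3′-end-counting libraries, per the labels' protocols; a 3′-end count does not grow with gene length. The deposited table held estimated counts per gene, which were not whole numbers, for 78986 features, and CPM that the authors computed from them. Per the submitters' processing notes fastp 0.24.0 and featureCounts were used with GRCh38. What aligner, gene annotation and strand setting they chose, and whether molecular identifiers were collapsed, is not given in the sources used here. CPM were printed per library total. Estimated counts were rounded and tested with edgeR 4.0.16 (TMM, filterByExpr, quasi-likelihood test, Benjamini-Hochberg adjusted p under 0.05) on the 6 libraries with group as the only term; glmTreat tested against 1.5-fold. The fit was tested on simulated data. Alternatives were DESeq2 1.42.0, limma 3.58.1, other scaling and filters, all 12 libraries, the replicate block and leaving out each library. Named genes were a panel of 15, the 15 largest called differences in each direction (mean at least 10 CPM, groups apart), and per list up to 6 called members by p and uncalled ones among its 3 most abundant; a part of these is printed, and ACTG1, ACTN2, AJUBA, ANGPTL4, ASNS, AXL, CCND2, CHAC1, CNN3, CRYBB3, FBLN2, FLNC, FOXD3, GREM1, ITGA5, KCNJ3, LHX2, MYOM2, NANOG, PDE9A, PFKFB3, POU5F1, PTPN14, RPS27L, SOX10, STC2, TGIF1, TPM4 and VLDLR fall outside the rule and were chosen after their values were seen. PSPH and ATF4 were likewise added after their values were seen. Gene coordinates are from GENCODE v29 (GRCh38), promoter windows from RefSeq. The members and lists were chosen with earlier results of these data known.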

Additional observations from a re-analysis of the deposited data

How the results depend on the processing

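Counts of called genes ranged from 1606 to 1869 when 1 library was left out, those past 1.5-fold from 189 to 231, and the difference in the mitochondrial share from 4.03 to 5.14 points. DESeq2 called 1118 genes (675 higher, 443 lower), of which 1096 were among the 2106. With all 12 libraries in the fit 1257 of 11203 were called (722 higher, 535 lower; 1251 of them among the 2106) and 154 past 1.5-fold. With the mitochondrial ribosomal RNA genes left out the difference in share was 2.75 points. Other scaling (RLE), limma-voom, no filter on low counts and leaving out mitochondrial genes called 2104, 2047, 1855 and 2101. A mean of at least 50 counts left 5222 genes, with 1514 called. The same replicate number did not make libraries deviate together (r = -0.01, -0.02 and -0.04 across genes), so the numbers were not taken as pairs; a fit with the replicate block called 2048 genes and 233 past 1.5-fold.

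Among the genes named, 135 of 177 called ones were called in the same direction under every alternative. Directions that turned belonged to genes that were not called: EDNRA (-0.069 without scaling, -0.021 to 0.16 when 1 library was left out), NPR3 (-0.054 to 0.89 when 1 was left out), ACTC1 (-0.095 to 0.011) and CNN1 (-0.089 without scaling, -0.013 to 0.092 when 1 was left out). PSPH and ATF4, also not called, were not followed through these alternatives. With a mean of at least 50 counts the median of the endothelin and Gq list was -0.13 and that of the metallothionein and zinc list -0.11; fewer members were tested. Not called with all 12 libraries, whose shallow libraries share the estimate of spread, were among others MYL7, MYL4, TTN, MYL9, TAGLN, CALR, ATP5F1B and RPS2. Depth limited rare genes: MME and EDNRB had too few counts for a test.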

Other observations

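Genes that bind or answer insulin-like growth factors differed in both directions, 4 of 22 higher and 8 lower (2 and 5 with DESeq2). IGFBP7, a secreted binding protein, was at 989, 988 and 996 CPM with endothelin-1 and 326, 308 and 325 CPM with sacubitrilat (1.75 ± 0.06, edgeR adjusted p = 4.16e-22), and the groups were far apart. IGFBP5 was lower (-1.505 ± 0.07), as was IGFBP3 (175, 196 and 173 CPM with endothelin-1 and 358, 341 and 377 CPM with sacubitrilat; -0.87 ± 0.07). Genes of class I antigen presentation had 6 of 9 higher and 0 lower, with 3 higher without scaling, 2 with DESeq2 and 1 with all 12 libraries in the fit. B2M, the invariant chain of class I molecules, was at 159, 143 and 144 CPM with endothelin-1 and 133, 84.4 and 87.5 CPM with sacubitrilat (0.69 ± 0.11), and HLA-B, a heavy chain whose reads may be shared with its relatives, overlapped at 63.3, 59.8 and 62.4 CPM with endothelin-1 and 61.6, 30.0 and 44.7 CPM with sacubitrilat (0.57 ± 0.15, edgeR adjusted p = 0.00523). The call of HLA-B was lost without sacubitrilat replicate 2 and with all 12 libraries in the fit (edgeR adjusted p up to 0.107). Lysosome and autophagy genes had 5 of 26 higher and 0 lower (3 and 0 with all 12 libraries), a share of 19.2% beside 17.6% of all genes, led by the protease CTSB at 461, 480.1 and 425 CPM with endothelin-1 and 269, 307 and 304 CPM with sacubitrilat (0.76 ± 0.07).

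Targets of NRF2, which responds to oxidants, had 1 of 17 higher and 6 lower (0 and 4 with DESeq2, 0 and 4 with all 12 libraries). Of these targets 41.2% were called, beside 17.6% of all genes. Besides SLC7A11, PRDX1, a peroxiredoxin, was at 356, 347 and 342 CPM with endothelin-1 and 560.4, 486 and 602 CPM with sacubitrilat (-0.54 ± 0.07, edgeR adjusted p = 1.57e-07), and the ferritin light chain FTL at 870, 759.7 and 781 CPM with endothelin-1 and 1216, 1201 and 1130 CPM with sacubitrilat (-0.43 ± 0.06). The call of FTL was lost with all 12 libraries in the fit (edgeR adjusted p = 0.124). Metallothionein and zinc transporter genes had 3 of 11 higher and 0 lower (0 and 0 with DESeq2), and in all 3 the groups overlapped. The share called in this list was 27.3%, beside 17.6% of all genes. MT2A, which binds zinc and copper, was at 55.3, 26.5 and 16.3 CPM with endothelin-1 and 24.97, 4.34 and 8.70 CPM with sacubitrilat (1.53 ± 0.33, edgeR adjusted p = 8.09e-04), with reads that its near-identical relatives may share. The call of MT2A was lost without endothelin-1 replicate 1 and with DESeq2 (edgeR and DESeq2 adjusted p up to 0.364).

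A pair of genes outside the naming rule, chosen after their values were seen, differed by more than most genes inside it. CRYBB3, another lens crystallin, was at 10.7, 12.2 and 22.1 CPM with endothelin-1 and 0.735, 0 and 0.512 CPM with sacubitrilat, a ratio of 34.6 from 75 and 2 counts (95% counting interval 9.24 to 290.5; edgeR adjusted p = 4.51e-09). LHX2, a LIM-homeodomain factor like LHX1, was at 1.68, 0 and 0 CPM with endothelin-1 and 7.34, 8.67 and 8.19 CPM with sacubitrilat, a ratio of 0.0747 from 3 and 37 counts (95% counting interval 0.0147 to 0.236; edgeR adjusted p = 1.79e-05).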
